A study of Mus musculus with 11 samples.

Results

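The 43 mitosis genes described here are genes that a dividing cell uses to enter mitosis, build the spindle, attach and check chromosomes, separate them and split. They were chosen by name, though with earlier results of these data known. All 43 were found among the 24490 genes of the deposited count tables. They comprise 6 genes of cyclins, Cdk1 and Cdc25 phosphatases, 7 of Polo, Aurora and chromosomal passenger proteins, 4 of the spindle checkpoint, 5 of anaphase and proteolysis, 5 of centromere and kinetochore, 9 of kinesins and other microtubule-binding proteins, 2 of cytokinesis, 2 of mitotic chromosomes and 3 of transcription factors. The study lowered the mRNA of the kinase Akt1 with siRNA in primary granulosa cells, the somatic cells that surround the oocyte in the ovarian follicle. The cells came from RjOrl:SWISS mice. Transfection was by lipofection with 30 pmol of siRNA per well; after 5 h the mix gave way to medium, and cells were lysed for RNA at 30 h.

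Each of 4 knockdown groups received a pool of 3 siRNAs drawn from the same 4 Akt1 siRNAs, so that every pool lacked another one. The siRNA left out was number 8 in pool 3, number 7 in pool 2, number 9 in pool 1 and number 6 in pool 4, if the pool numbers of the sample titles match those of the protocol, which was assumed. The scramble group received the same amount of a nontargeting siRNA. There were 2 libraries per pool and 3 of scramble, 11 in all. The labels used here give no age of the mice, no untransfected cells and do not say whether replicates were grown apart. The p-values therefore speak of the spread among these libraries alone, and that spread may be technical. All 4 comparisons of a pool with scramble share the scramble libraries.

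Entry into mitosis is driven by Cdk1 bound to cyclin B, which Cdc25 phosphatases activate and Plk1 and the Aurora kinases reinforce. The spindle checkpoint holds back the anaphase-promoting complex until kinetochores are attached, and its activator Cdc20 then directs the destruction of securin and cyclin B. Most of these genes are transcribed in late S and G2 phase under B-Myb and FoxM1 together with the MuvB core, which binds a promoter element called the cell cycle homology region (CHR), often close to CCAAT boxes that bind NF-Y. Granulosa cells of growing follicles divide, and they leave the cell cycle when they become luteal cells.

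Promoter windows are shown for 6 members to set the letters of these elements beside the values that follow. RefSeq windows of 250 bases before to 50 after the annotated start were matched for 35 of the 43 members. The CHR was searched as TTTGAA or TTCGAA and the CCAAT box as CCAAT, on both strands (TTCGAA reads the same on either). For each gene the first listed window was used, which need not lie at its main start. CHR letters lay in 27 of the 35 member windows (77.1%), against 19.4% of all 27025 promoter windows chosen in this way. CCAAT lay in 26 (74.3%), against 37.9% of all windows, and at least 2 copies in 18 (51.4%), against 12.2%. Both elements lay in 24 (68.6%), against 7.7%. The windows below run 5′ to 3′ from 150 bases before to 30 bases after the start in build GRCm38.p6, and capitals mark CHR and CCAAT letters on either strand. Prc1, Ube2c, Cdc20 and Cenpa were among the members that differed most between pools. Top2a holds several copies of both elements and Birc5 holds neither, and neither gene was called between pools with all libraries or without scramble replicate 1. The searched windows of Mad2l1, Nuf2 and Nusap1 also hold neither element, yet these genes were called between pools without scramble replicate 1. The windows of Pttg1 and Mybl2 hold neither as well, and these genes were not called there. Whether the elements go with the differences between pools was not tested. A match describes these letters only, and says nothing of a factor binding there.
Prc1, chr7:80294301-80294480, plus strand: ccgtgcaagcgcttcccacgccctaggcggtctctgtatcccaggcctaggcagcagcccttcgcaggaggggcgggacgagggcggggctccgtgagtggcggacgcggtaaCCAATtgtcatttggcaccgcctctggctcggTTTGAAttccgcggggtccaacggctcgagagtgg
Ube2c, chr2:164769779-164769958, plus strand: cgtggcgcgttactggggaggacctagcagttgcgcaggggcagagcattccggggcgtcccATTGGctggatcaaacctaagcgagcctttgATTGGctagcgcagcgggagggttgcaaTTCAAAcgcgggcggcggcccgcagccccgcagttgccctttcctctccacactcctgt
Cdc20, chr4:118437314-118437493, minus strand: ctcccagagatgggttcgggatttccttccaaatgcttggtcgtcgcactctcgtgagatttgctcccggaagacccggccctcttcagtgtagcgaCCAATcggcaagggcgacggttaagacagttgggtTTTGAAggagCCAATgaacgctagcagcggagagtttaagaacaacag
Cenpa, chr5:30666736-30666915, plus strand: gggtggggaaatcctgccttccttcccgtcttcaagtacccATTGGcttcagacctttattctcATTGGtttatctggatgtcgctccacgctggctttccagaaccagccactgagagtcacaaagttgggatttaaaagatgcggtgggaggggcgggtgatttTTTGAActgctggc
Top2a, chr11:99024160-99024339, minus strand: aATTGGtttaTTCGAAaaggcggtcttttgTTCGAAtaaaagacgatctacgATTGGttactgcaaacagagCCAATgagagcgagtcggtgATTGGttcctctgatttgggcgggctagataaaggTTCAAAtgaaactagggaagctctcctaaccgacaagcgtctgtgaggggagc
Birc5, chr11:117849087-117849266, plus strand: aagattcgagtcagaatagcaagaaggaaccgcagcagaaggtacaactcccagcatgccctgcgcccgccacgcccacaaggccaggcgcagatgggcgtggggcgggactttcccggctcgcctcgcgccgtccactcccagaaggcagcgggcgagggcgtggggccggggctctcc

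Libraries held 23851293 to 32643158 reads in genes, and levels are given as CPM, the read count of a gene divided by that total and scaled to the same size for every library. Akt1, the target, was read at 79.3 and 81.7 CPM in pool 3, 52.7 and 55.1 in pool 2, 63.9 and 58.6 in pool 1, 55.1 and 62.4 in pool 4 and 529, 428 and 399 in scramble. All 8 pool libraries lay far below the scramble libraries. The granulosa markers Foxl2 and Inha were read at 112 to 203 and 1241 to 3486 CPM across libraries, and Fshr and Amh, the receptor and hormone genes of that cell type, at no more than 0.37 and 0.83 CPM. Scramble replicate 1 stood apart from scramble replicates 2 and 3: a chi-square statistic per degree of freedom over genes was 289 and 311 for its pairs with them, against 2.72 to 6.55 for the other pairs of the same group. Results are therefore given with and without it. In the bulk RNA used here, fewer cells in mitosis and less of these mRNAs per cell cannot be told apart.

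The members were highest in pool 3 and lowest in pool 2 among the knockdown groups. Their summed level was 4628 and 4412 CPM in pool 3, 3401 and 3266 in pool 2, 3751 and 3807 in pool 1, 3829 and 3801 in pool 4, and 3245, 3344 and 3514 in scramble replicates 1, 2 and 3. Both pool 3 libraries lay above every other library, pools 1 and 4 lay between, and pool 2 lay within the scramble range. On a log2 scale against the mean of scramble replicates 2 and 3 (CPM plus 0.5), the median member stood at 0.48 and 0.40 in pool 3, 0.00 and -0.07 in pool 2, 0.16 and 0.17 in pool 1, and 0.21 and 0.17 in pool 4. Of the 43 members, 42 lay above 0 in each pool 3 library, against 22 and 9 in the pool 2 libraries. These medians and counts use library totals, and no value over all genes was set beside them. TMM factors were 1.03 in pool 3, 1.01 to 1.02 in pools 1 and 4, 0.98 in pool 2 and 0.97 in scramble replicates 2 and 3. Scaling by them would lower the pool values, most in pool 3.

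The same order held gene by gene for most members. Both pool 3 libraries lay above the other 6 pool libraries for 39 of 43 members, against 24.8% of the 14144 genes tested, the exceptions being Aurka, Birc5, Incenp and Mybl2. Both pool 2 libraries lay below the other 6 for 38 members, against 31.6% of genes, the exceptions being Cdc25b, Aurka, Birc5, Incenp and Nusap1. The full order, with pool 3 above pools 1 and 4 and these above pool 2, held for 37 members, against 17% of genes. With TMM scaling in place of library totals these 3 counts were 37, 34 and 32. The shares of all genes were not counted under that scaling, so these 3 counts do not compare the members with other genes. Pool 3 lay above scramble replicates 2 and 3 for 40 members, against 47.3% of genes, and above all 3 scramble libraries for 29, against 28.7%. Aurka was the single member with both pool 2 libraries above the other 6, against 18.7% of genes.

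**Figure D1:**
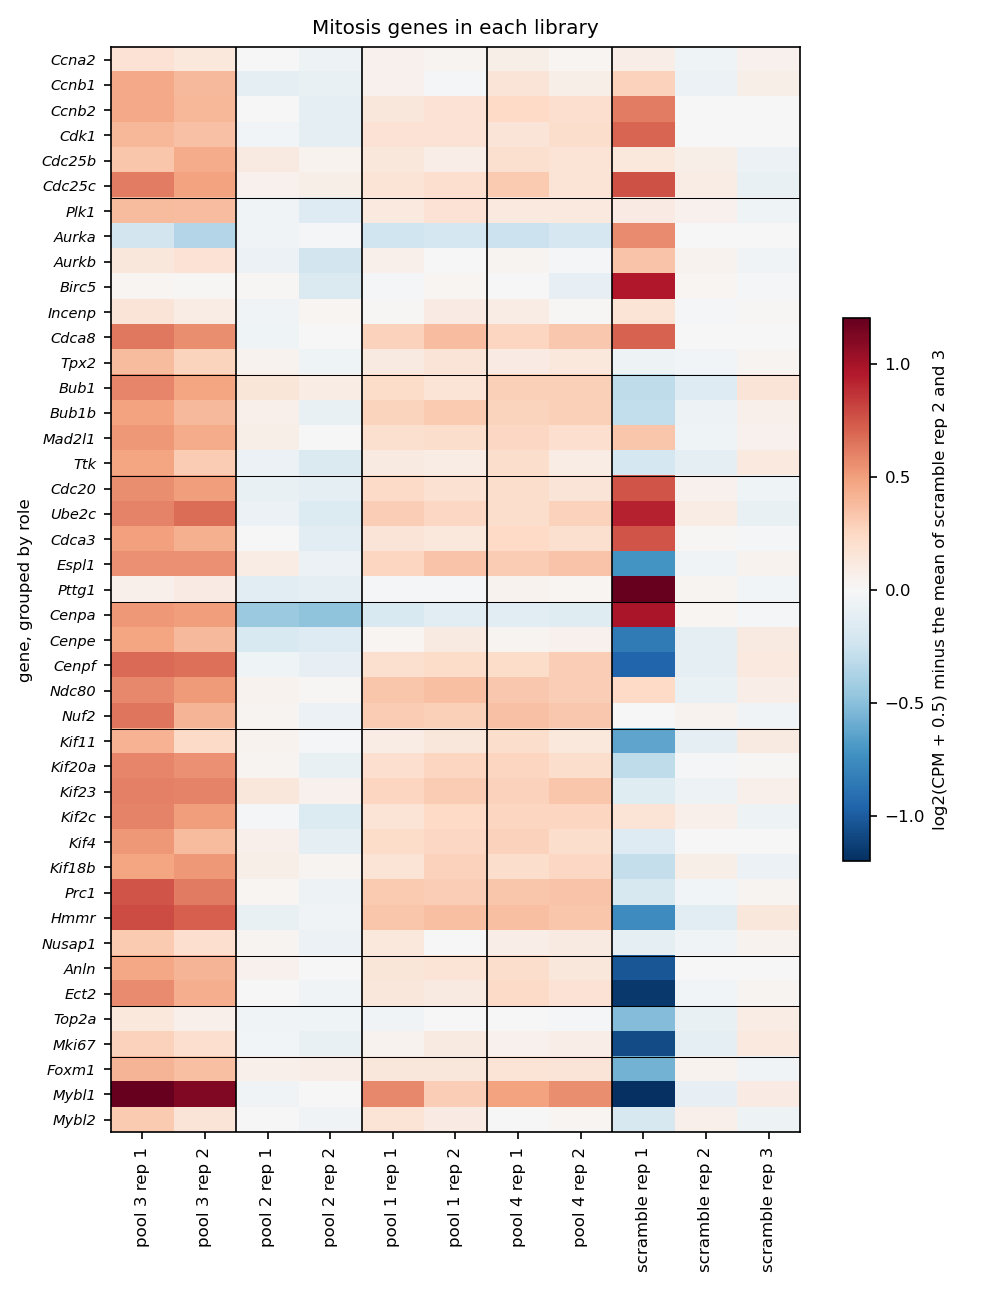
Level of each of the 43 mitosis genes in each of the 11 libraries, as log2(CPM + 0.5) minus the mean of scramble replicates 2 and 3; rows are genes grouped by role, black lines divide roles and groups, and colours stop at 1.2 in either direction. Pool 3 is red in most rows, deepest for Mybl1, with Aurka blue; pool 2 is pale apart from Cenpa in blue; and scramble replicate 1 holds deep red (Pttg1) and deep blue (Mybl1) cells.

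Tests of the pools against scramble called few members with all 11 libraries and many without scramble replicate 1. Genes were called at a Benjamini-Hochberg adjusted p below 0.05 in edgeR's quasi-likelihood test over all genes tested. Pool 3 had 12 members higher and 0 lower with all libraries, while 11.2% of genes were called, 4.33% as higher and 6.84% as lower. The 12 calls became 0 or 2 with pool 3 replicate 1 or 2 left out, 7 with scramble replicate 2 left out, and 4 or 5 with any 1 library of the other pools left out. The share of all genes called in those reruns is not set beside these counts, so they do not compare the members with other genes. Without scramble replicate 1, pool 3 had 35 higher and 1 lower, while 48.8% of genes were called, 22.7% as higher and 26.1% as lower. The median log2 fold change over the members in pool 3 was 0.30 with all libraries and 0.35 without that library, against -0.02 and 0.01 over all genes.

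Pools 1 and 4 had 0 members called against scramble with all libraries, while 1.93% and 2.57% of genes were called by edgeR. At an unadjusted p below 0.05, edgeR counted 6 members in pool 1 and 12 in pool 4, against 2091 and 2272 of the 14144 genes tested. DESeq2 called 0 members in pool 1 and 2 in pool 4. Without scramble replicate 1, pool 1 had 13 higher and 2 lower, with 11.8% of genes higher and 17% lower, and pool 4 had 22 higher and 2 lower, with 13.2% of genes higher and 17.8% lower. Pool 2 had 0 members called with all libraries in edgeR (0.00707% of genes) and 0 in DESeq2. At an unadjusted p below 0.05 in edgeR it had 2 members, against 653 of the 14144 genes. With that library left out, pool 2 had 1 member called, Cenpa, which fell, while 4.39% of genes were called, 2.69% as lower. The 8 pool libraries as 1 group against scramble gave 0 members in edgeR, while 0.00707% of genes, that is Akt1 alone, were called. At an unadjusted p below 0.05 the count was 16 members, against 4041 of the 14144 genes. DESeq2 called 1 member, and edgeR without scramble replicate 1 called 0 members and 0.469% of genes.

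The pools were then compared with one another, which does not use the scramble levels. Tested for any difference among the 4 pools, 0 members were called by edgeR with all libraries, against 2.46% of genes, and 7 by DESeq2. At an unadjusted p below 0.05, edgeR counted 9 members, against 1702 of the 14144 genes. The members called by edgeR were 37 without scramble replicate 1, while 42.8% of genes were called. With the 8 pool libraries alone they were also 37, while 48.6% of genes were called. Pool 3, set against the average of the remaining pools, gave 1 member higher, Prc1, with all libraries (1.83% of genes called, 0.601% as higher and 1.23% as lower). Without scramble replicate 1 it gave 36 higher and 1 lower, while 18.1% of genes were higher and 21.5% lower, and with the pools alone 38 higher and 1 lower, while 20.4% were higher and 24.1% lower. Pool 2 against the other 3 gave 2 members lower, Kif2c and Prc1, with all libraries (5.25% of genes called, 1.3% as lower and 3.95% as higher). The calls of Prc1 and Kif2c with all libraries were lost when scramble replicate 2 or any 1 pool library was left out. Leaving out scramble replicate 1 gave 34 lower and 1 higher, while 20.3% of genes were lower and 23.5% higher, and the pools alone gave the same counts, while 22.3% were lower and 25.3% higher. Pools 1 and 4 against the others had 0 members called by edgeR with all libraries (0.0141% and 0% of genes) and 0 by DESeq2. At an unadjusted p below 0.05 they had 0 members in edgeR, against 201 and 192 of 14144 genes. Without scramble replicate 1, edgeR called 0 members (1.73% and 1.49% of genes). At an unadjusted p below 0.05 there were then 5 and 1 members, against 1634 and 1396 of 14062 genes. The pools alone gave 1 lower member in pool 1 and 0 in pool 4 (2.99% and 2.37% of genes).

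The fold changes between pools use no scramble level, so leaving out scramble replicate 1 could hardly change them. The median member stood at 0.29 with all libraries, 0.28 without scramble replicate 1 and 0.28 with the pools alone for pool 3 against the others, where the median gene stood at 0.01, 0.00 and 0.00. For pool 2 against the others it stood at -0.25, -0.25 and -0.24, where the median gene stood at -0.01 each time. What differed for these comparisons was the spread that the groups share in the fit: the standard error (SE) of Prc1 in pool 3 against the others was 0.09 with all libraries and 0.04 without scramble replicate 1. Fold changes against scramble did move with that library for some members, such as Cenpa and Mybl1, whose values are given below. Fold changes below are log2 values ± SE from edgeR without scramble replicate 1 unless said otherwise, and the 6 members that the 4-pool test did not call in that fit were Ccna2, Birc5, Incenp, Pttg1, Top2a and Mybl2. Counts by role of genes that rose or fell are calls in that fit. Beside each stand 18.1% of all genes higher and 21.5% lower in pool 3, and 23.5% higher and 20.3% lower in pool 2. With all libraries, only Prc1 in pool 3 and Kif2c and Prc1 in pool 2 were called against the other pools.

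**Figure D2:**
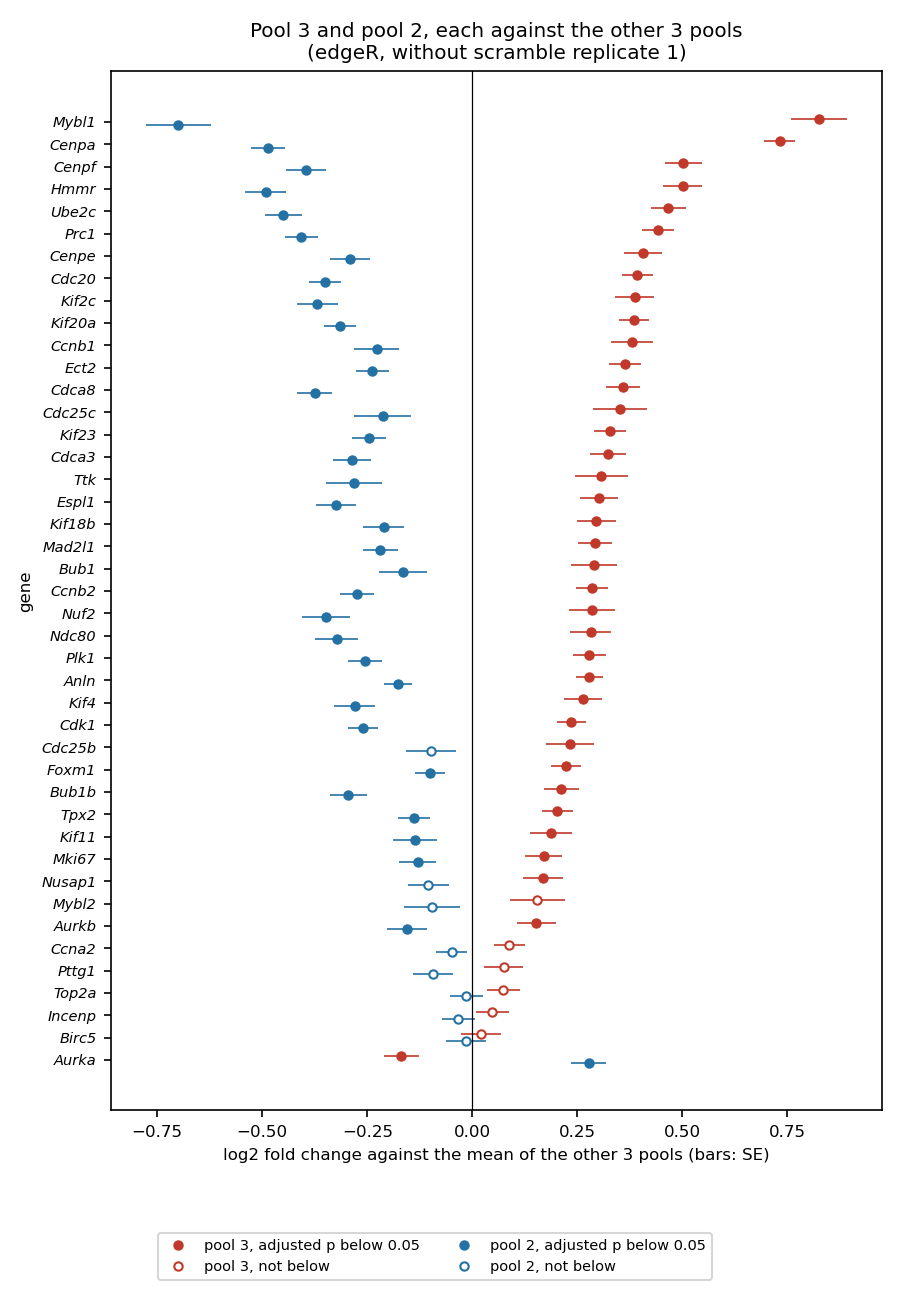
Log2 fold change of each of the 43 genes in pool 3 (red) and pool 2 (blue), each against the mean of the other 3 pools, from edgeR without scramble replicate 1; bars are SE, and filled points have an adjusted p below 0.05. Pool 3 values reach 0.82 for Mybl1 and pool 2 values -0.70 for the same gene, and Aurka at the foot has the opposite signs.

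Among the genes of cyclins, Cdk1 and Cdc25 phosphatases, 5 of 6 rose in pool 3 against the other pools and 4 fell in pool 2. Ccnb1, which encodes the mitotic cyclin B1 (chr13:100778650-100786570 in GRCm38), was read at 40.1 and 38.3 CPM in pool 3, 26.98 and 27.3 in pool 2, 30.1 and 28.7 in pool 1, 32.3 and 30.4 in pool 4 and 35.3, 27.6 and 30.6 in scramble replicates 1, 2 and 3. Both pool 3 libraries were the highest of all 11. It rose in pool 3 by 0.38 ± 0.05 against the other pools (edgeR adjusted p = 3.51e-06) and by 0.34 ± 0.06 against scramble (edgeR adjusted p = 0.000142).
Cdk1, the kinase of mitotic entry, was read at 189 and 182 CPM in pool 3, 140.4 and 132 in pool 2, 162 and 162 in pool 1, 159.6 and 165 in pool 4 and 233, 143 and 144 in scramble replicates 1, 2 and 3. Scramble replicate 1 was the highest library and scramble replicates 2 and 3 lay just above pool 2. Cdk1 rose in pool 3 by 0.24 ± 0.03 and fell in pool 2 by 0.26 ± 0.04 against the other 3 pools in each case (edgeR adjusted p = 1.05e-05 and 3.52e-06). Ccnb2, the gene of cyclin B2, stood at 0.28 ± 0.04 in pool 3 against the other pools, Cdc25b at 0.23 ± 0.06 and Cdc25c at 0.35 ± 0.06, and all 3 were called. Ccna2, which encodes cyclin A2 of S and G2 phase, did not pass, at 0.09 ± 0.04 (edgeR adjusted p = 0.0614), but did with the pools alone (edgeR adjusted p = 0.0242).

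Genes of Polo, Aurora and chromosomal passenger proteins were mixed, with 4 of 7 higher and 1 lower in pool 3 against the other pools. Plk1, the Polo-like kinase of entry, spindle and cytokinesis (chr7:122159439-122169873), was read at 97.97 and 97.03 CPM in pool 3, 73.2 and 67.3 in pool 2, 81.4 and 84.99 in pool 1, 81.6 and 81.5 in pool 4 and 80.6, 77.99 and 72.5 in scramble replicates 1, 2 and 3. Pool 3 was above every other library, and pool 2 replicate 1 fell among the scramble values. Plk1 rose in pool 3 by 0.28 ± 0.04 (edgeR adjusted p = 7.15e-06) and stood at -0.25 ± 0.04 in pool 2 (edgeR adjusted p = 2.80e-05), each against the other 3 pools. Aurkb, the kinase of the chromosomal passenger complex, was read at 44.6 and 46.04 CPM in pool 3, 38.6 and 34.9 in pool 2, 42.4 and 40.8 in pool 1, 41.7 and 39.9 in pool 4 and 51.7, 41.7 and 39.6 in scramble replicates 1, 2 and 3. Scramble replicate 1 was again the highest, and pool 3 exceeded the other pools by 0.15 ± 0.05 (edgeR adjusted p = 0.0135). Against scramble Aurkb did not pass in pool 3, at 0.07 ± 0.06 (edgeR adjusted p = 0.373).
Cdca8, which encodes the passenger protein borealin, rose in pool 3 by 0.36 ± 0.04 and stood at -0.38 ± 0.04 in pool 2, each against the other 3 pools and each called. Tpx2, the gene of a spindle assembly factor that activates Aurora A, rose in pool 3 by 0.20 ± 0.04. Incenp and Birc5, which encode the scaffold of the passenger complex and survivin, stood at 0.05 ± 0.04 and 0.02 ± 0.05 and did not pass.

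Aurka, which encodes Aurora A of centrosomes and spindle poles, ran the other way from most members. It was read at 52.97 and 48.5 CPM in pool 3, 60.2 and 61.3 in pool 2, 52.4 and 53.3 in pool 1, 51.8 and 53.9 in pool 4 and 91.8, 62.1 and 61.8 in scramble replicates 1, 2 and 3. Pools 3, 1 and 4 lay below all scramble libraries, pool 2 lay just below scramble replicates 2 and 3, and scramble replicate 1 was far above the rest. Against scramble, Aurka fell in pool 3 by 0.38 ± 0.05, in pool 1 by 0.30 ± 0.05 and in pool 4 by 0.29 ± 0.05 (edgeR adjusted p = 3.08e-06, 0.00013 and 0.000178). In pool 2 it stood at -0.05 ± 0.05 against scramble (edgeR adjusted p = 0.73), and it was higher in pool 2 than in the other pools by 0.28 ± 0.04 (edgeR adjusted p = 1.10e-05). With all libraries it did not pass in any of these comparisons, the lowest edgeR adjusted p being 0.0592 in pool 3 against scramble.

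All 4 spindle checkpoint genes rose in pool 3 and fell in pool 2 against the other pools. Mad2l1, whose protein Mad2 binds and holds Cdc20, was read at 75.4 and 71.3 CPM in pool 3, 54.8 and 52.05 in pool 2, 60.02 and 60.6 in pool 1, 62.03 and 60.4 in pool 4 and 66.1, 50.4 and 54.3 in scramble replicates 1, 2 and 3. Both pool 3 libraries were above the other 9. Ttk, the gene of the checkpoint kinase Mps1, was read at 32.97 and 29.3 CPM in pool 3, 22.5 and 20.99 in pool 2, 25.5 and 25.2 in pool 1, 27.5 and 25.2 in pool 4 and 20.4, 21.8 and 25.7 in scramble replicates 1, 2 and 3. Pool 3 was highest, and pool 2 and scramble overlapped. The pool 3 fold changes against the other pools were 0.31 ± 0.06 for Ttk, 0.29 ± 0.04 for Mad2l1, 0.29 ± 0.05 for the kinase gene Bub1 and 0.21 ± 0.04 for Bub1b, which encodes BubR1. Against scramble, Bub1 and Bub1b were also called in pool 3 with all libraries, at 0.55 ± 0.14 and 0.46 ± 0.12 (edgeR adjusted p = 0.0379 and 0.046).

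Of the anaphase and proteolysis genes, 4 of 5 rose in pool 3 and 4 fell in pool 2 against the other pools. Ube2c, whose protein loads ubiquitin for the anaphase-promoting complex, was read at 131 and 138 CPM in pool 3, 81.8 and 76.8 in pool 2, 106 and 102 in pool 1, 100.1 and 104 in pool 4 and 164, 91.6 and 81.04 in scramble replicates 1, 2 and 3. Among the pools there was no overlap between pool 3, pools 1 and 4, and pool 2, and scramble replicate 1 exceeded all of them. It rose in pool 3 by 0.47 ± 0.04 and fell in pool 2 by 0.45 ± 0.04, each against the other 3 pools (edgeR adjusted p = 1.67e-08 and 4.19e-08).
Cdc20, the activator gene, was read at 111 and 106 CPM in pool 3, 70.5 and 69.9 in pool 2, 87.9 and 85.4 in pool 1, 87.1 and 83.8 in pool 4 and 127, 77.7 and 72.5 in scramble replicates 1, 2 and 3. It had the same order as Ube2c, with fold changes of 0.39 ± 0.04 in pool 3 and -0.35 ± 0.04 in pool 2. Espl1, the gene of separase, which cuts cohesin, stood at 0.30 ± 0.05 in pool 3, and Cdca3, a gene of mitotic entry, at 0.32 ± 0.04. Pttg1, which encodes securin, the inhibitor of separase, was read at 31.5 and 32.2 CPM in pool 3, 27.6 and 27.9 in pool 2, 29.9 and 29.6 in pool 1, 31.1 and 30.7 in pool 4 and 73.1, 30.8 and 29.4 in scramble replicates 1, 2 and 3. Its 8 pool libraries and scramble replicates 2 and 3 lay close together, and it passed in neither pool 3 (0.07 ± 0.05) nor pool 2 (-0.09 ± 0.05).

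All 5 centromere and kinetochore genes rose in pool 3 and fell in pool 2 against the other pools. Cenpa, the histone variant gene that marks centromeres (chr5:30666777-30674830), was read at 78.8 and 77.8 CPM in pool 3, 40.01 and 38.99 in pool 2, 48.3 and 49.9 in pool 1, 49.7 and 49.4 in pool 4 and 109, 55.8 and 53.8 in scramble replicates 1, 2 and 3. The pool libraries of each group were nearly equal, pool 3 lay above and pool 2 below the rest, and pools 1, 2 and 4 lay under scramble replicates 2 and 3. Cenpa rose in pool 3 by 0.42 ± 0.05 against scramble and fell in pool 2 by 0.49 ± 0.05, in pool 1 by 0.23 ± 0.05 and in pool 4 by 0.21 ± 0.05 (edgeR adjusted p = 1.91e-07, 2.39e-06, 0.00119 and 0.00253). It was the single member lower in pool 2 against scramble. With all libraries its value against scramble in pool 3 was 0.04 ± 0.26 (edgeR adjusted p = 0.926), and scramble replicate 1 had the highest level of all 11 libraries.
Ndc80 and Nuf2 encode partners in the kinetochore complex that grips microtubules. Ndc80 was read at 41.4 and 39.6 CPM in pool 3, 28.4 and 27.8 in pool 2, 34.7 and 35.6 in pool 1, 34.6 and 33.9 in pool 4 and 32.5, 25.97 and 29.2 in scramble replicates 1, 2 and 3. Nuf2 was read at 48.3 and 40.9 CPM in pool 3, 31.5 and 29.4 in pool 2, 38.1 and 37.5 in pool 1, 39.3 and 38.6 in pool 4 and 30.7, 31.6 and 29.9 in scramble replicates 1, 2 and 3. For both, pool 3 was the highest, pools 1 and 4 lay above all scramble libraries, and pool 2 overlapped scramble. With all libraries both were called in pool 3 against scramble, at 0.40 ± 0.10 and 0.47 ± 0.10 (edgeR adjusted p = 0.0367 and 0.0188). Cenpf and Cenpe, genes of large kinetochore proteins, stood at 0.50 ± 0.04 and 0.41 ± 0.05 in pool 3 against the other pools.

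Of the 9 genes of kinesins and other microtubule-binding proteins, all 9 rose in pool 3 and 8 fell in pool 2 against the other pools. Prc1, which encodes the protein that bundles microtubules of the spindle midzone (chr7:80294450-80316259), was read at 237 and 216 CPM in pool 3, 143 and 134 in pool 2, 175 and 173 in pool 1, 177 and 178 in pool 4 and 123, 137 and 144 in scramble replicates 1, 2 and 3. Pool 3 was above every other library, pools 1 and 4 lay above all scramble libraries, and pool 2 overlapped scramble. With all libraries Prc1 rose in pool 3 by 0.68 ± 0.10 against scramble and by 0.45 ± 0.09 against the other pools (edgeR adjusted p = 0.00487 and 0.049), and fell in pool 2 by 0.41 ± 0.09 against the other pools (edgeR adjusted p = 0.0441). It was the single member called in both comparisons between pools with all libraries.
Kif23, the kinesin gene of the centralspindlin complex, was read at 99.7 and 99.01 CPM in pool 3, 72.05 and 68.2 in pool 2, 78.7 and 81.1 in pool 1, 79.6 and 82.97 in pool 4 and 59.1, 62.9 and 68.3 in scramble replicates 1, 2 and 3. Every pool library except pool 2 replicate 2 exceeded the scramble libraries. Kif20a, a kinesin gene of cytokinesis, was read at 188 and 182 CPM in pool 3, 127 and 117 in pool 2, 143 and 149 in pool 1, 149 and 144 in pool 4 and 101, 123 and 126 in scramble replicates 1, 2 and 3. Scramble replicate 1 was the lowest here, and pool 2 overlapped scramble replicates 2 and 3.
Kif2c, which encodes a kinesin that depolymerises microtubules at kinetochores, was read at 42.1 and 37.9 CPM in pool 2, 64.4 and 60.4 in pool 3, 47.6 and 50.1 in pool 1, 51.00 and 50.9 in pool 4 and 47.6, 44.3 and 40.8 in scramble replicates 1, 2 and 3. With all libraries it fell in pool 2 by 0.37 ± 0.09 against the other pools (edgeR adjusted p = 0.0444) and rose in pool 3 by 0.43 ± 0.09 against scramble (edgeR adjusted p = 0.0224). Pool 2 replicate 1 lay among the scramble values and replicate 2 below all 3.
Kif4, the gene of a chromosome-bound kinesin, was read at 73.2 and 66.3 CPM in pool 3, 52.9 and 46.96 in pool 2, 59.2 and 60.2 in pool 1, 61.8 and 58.8 in pool 4 and 45.5, 50.9 and 50.6 in scramble replicates 1, 2 and 3. Kif18b, the gene of a kinesin at microtubule ends, was read at 47.2 and 48.6 CPM in pool 3, 35.5 and 34.5 in pool 2, 37.8 and 41.1 in pool 1, 39.1 and 40.2 in pool 4 and 27.6, 35.4 and 32.2 in scramble replicates 1, 2 and 3. In both, pools 3, 1 and 4 lay above all scramble libraries. Hmmr, which encodes a spindle protein and hyaluronan receptor, was read at 159 and 152 CPM in pool 3, 86.7 and 89.3 in pool 2, 116 and 118 in pool 1, 118 and 116 in pool 4 and 54.2, 83.8 and 101 in scramble replicates 1, 2 and 3. Its pool 3 fold change was 0.50 ± 0.05 against the other pools and 0.66 ± 0.06 against scramble, the largest of this role in both (edgeR adjusted p = 3.02e-08 and 9.45e-09). Kif11 and Nusap1, genes of a spindle motor and a spindle-binding protein, had the smallest, at 0.19 ± 0.05 and 0.17 ± 0.05 against the other pools.

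**Figure D3:**
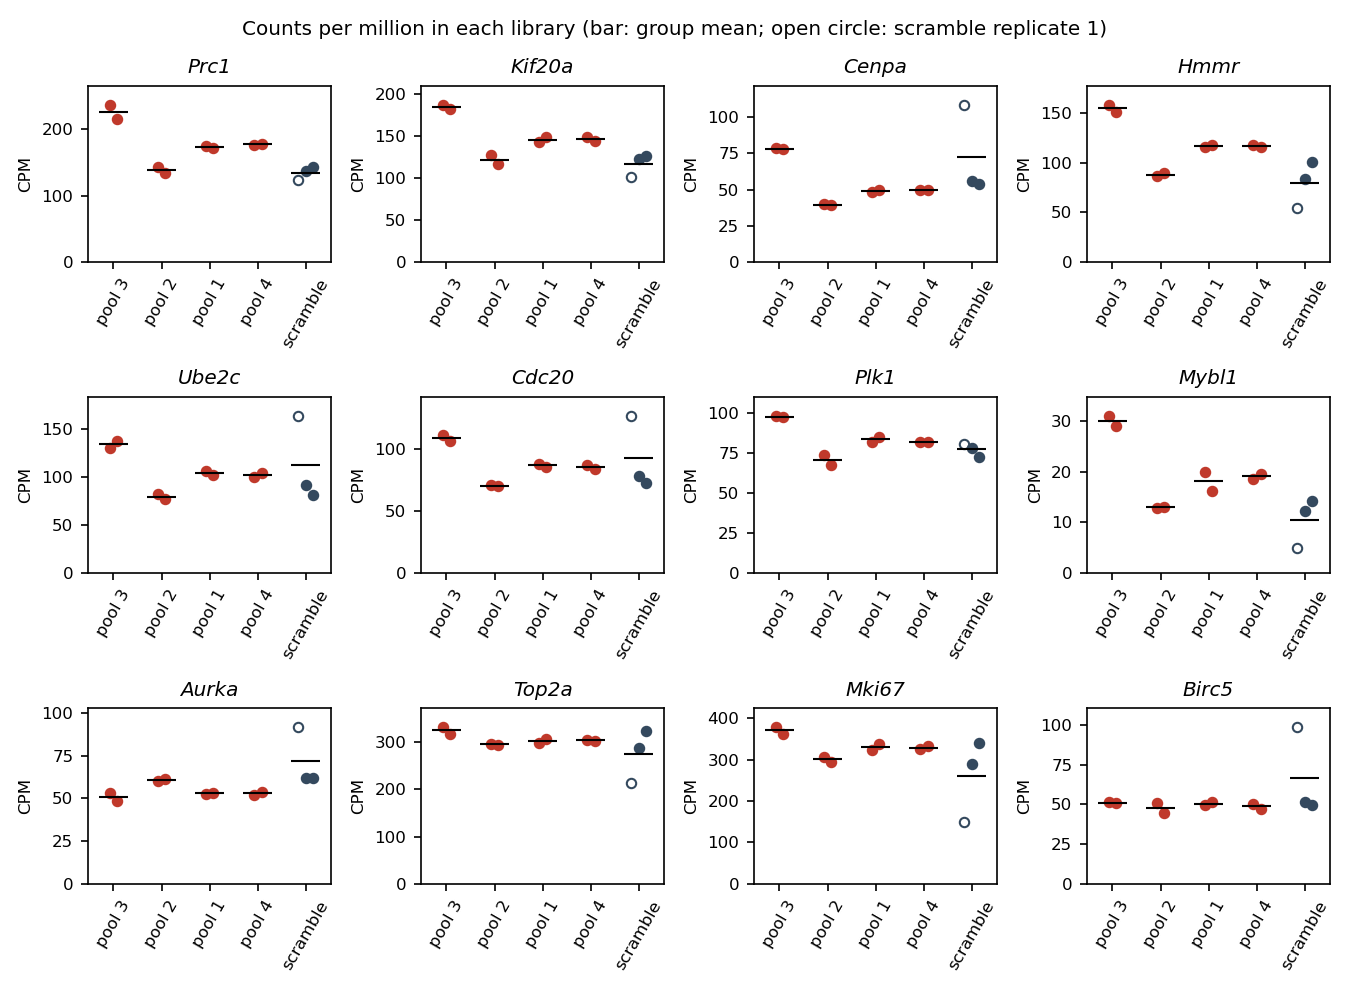
Level in CPM of 12 mitosis genes in each library (y axis from 0), with pools in red, scramble in dark blue, the group mean as a bar and scramble replicate 1 as an open circle. Pool 3 is highest among the pools for Prc1, Kif20a, Cenpa, Hmmr, Ube2c, Cdc20, Plk1 and Mybl1, pool 2 is highest among the pools for Aurka, and Birc5 is level across the pools at 44.8 to 51.4 CPM.

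Both cytokinesis genes rose in pool 3 and fell in pool 2 against the other pools. Anln, which encodes the actin-binding protein anillin, stood at 0.28 ± 0.03 in pool 3 and -0.18 ± 0.03 in pool 2. Ect2, which encodes the RhoA exchange factor of the cleavage furrow, stood at 0.36 ± 0.04 and -0.24 ± 0.04. Scramble replicate 1 was far below the other scramble libraries for both, at 111 against 228 and 228 CPM for Anln and 62.8 against 137 and 145 CPM for Ect2.

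The 2 genes of mitotic chromosomes had small fold changes. Mki67, the proliferation marker gene whose protein Ki-67 coats mitotic chromosomes, was read at 379 and 361 CPM in pool 3, 307 and 295 in pool 2, 324 and 337 in pool 1, 326 and 332 in pool 4 and 149, 289.7 and 339.7 in scramble replicates 1, 2 and 3. Pool 3 exceeded the other pools, scramble replicate 3 lay just above pools 1 and 4, and scramble replicate 1 lay far below. Mki67 rose in pool 3 by 0.17 ± 0.04 against the other pools and by 0.15 ± 0.05 against scramble (edgeR adjusted p = 0.00419 and 0.0332). Top2a, which encodes the topoisomerase that untangles sister chromatids, was read at 333 and 319 CPM in pool 3, 297 and 295 in pool 2, 298 and 307 in pool 1, 305 and 303 in pool 4 and 213, 288 and 324 in scramble replicates 1, 2 and 3. Pools 1, 2 and 4 lay between scramble replicates 2 and 3, and pool 3 did not pass against the other pools (0.07 ± 0.04, edgeR adjusted p = 0.138) or against scramble (0.00 ± 0.05, edgeR adjusted p = 0.99). With the pools alone it was called in pool 3 against the others, at 0.07 ± 0.03 (edgeR adjusted p = 0.0328).

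Of the 3 transcription factor genes, Mybl1 and Foxm1 rose in pool 3 and fell in pool 2 against the other pools, and Mybl2 passed in neither. Mybl1, which encodes A-Myb (chr1:9667415-9700209), was read at 31.03 and 28.96 CPM in pool 3, 12.7 and 13.1 in pool 2, 19.8 and 16.2 in pool 1, 18.6 and 19.6 in pool 4 and 4.93, 12.2 and 14.1 in scramble replicates 1, 2 and 3. It had the largest fold changes of all 43 members: 0.82 ± 0.07 in pool 3 and -0.70 ± 0.08 in pool 2 against the other pools, and 1.10 ± 0.09 in pool 3 against scramble (edgeR adjusted p = 5.00e-09, 2.11e-07 and 2.35e-09). Pools 3, 1 and 4 lay above all scramble libraries, pool 2 lay between scramble replicates 2 and 3, and scramble replicate 1 was the lowest. With all libraries the pool 3 value against scramble was 1.46 ± 0.36 (edgeR adjusted p = 0.0362).
Foxm1, the gene of the forkhead factor of G2 genes, was read at 94.1 and 90.8 CPM in pool 3, 73.8 and 74.7 in pool 2, 77.5 and 77.7 in pool 1, 79.3 and 78.9 in pool 4 and 47.6, 72.7 and 68.7 in scramble replicates 1, 2 and 3. Pool 3 was the highest and scramble replicate 1 the lowest, and pools 1, 2 and 4 exceeded all scramble libraries. It rose in pool 3 by 0.22 ± 0.04 against the other pools (edgeR adjusted p = 3.30e-05). Mybl2, which encodes B-Myb, was read at 17.8 and 15.9 CPM in pool 3, 14.3 and 13.8 in pool 2, 16.02 and 15.3 in pool 1, 14.4 and 14.5 in pool 4 and 12.4, 14.9 and 13.6 in scramble replicates 1, 2 and 3. The pools overlapped, and pool 3 stood at 0.15 ± 0.07 against the others (edgeR adjusted p = 0.068).

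Scramble replicate 1 split the members by transcript length. Its CPM over the mean of scramble replicates 2 and 3 was a log2 ratio of 1.28 for Pttg1, 0.99 for Cenpa, 0.97 for Birc5 and 0.93 for Ube2c, and of -1.42 for Mybl1, -1.17 for Ect2, -1.08 for Mki67, -1.03 for Anln and -0.97 for Cenpf. All 11 members with a transcript under 2000 bases lay above 0 (median 0.76), and 12 of the 14 from 4000 bases up lay below 0 (median -0.69), the exceptions being Cdk1 and Mad2l1. Spearman's rho between length and this ratio was -0.82 over the 43 members, a description of 1 library whose members share depth and preparation. This library was the highest of all 11 for 13 members, against 37.5% of genes, and the lowest for 22, against 37%. In pool 3 against the other pools, the short members Birc5 (947 bases), Pttg1 (948 bases) and Ube2c (967 bases) stood at 0.02, 0.07 and 0.47, and the long Cenpf (11130 bases) and Mki67 (10061 bases) at 0.50 and 0.17. The part of length in the pool values was not tested.

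**Figure D4:**
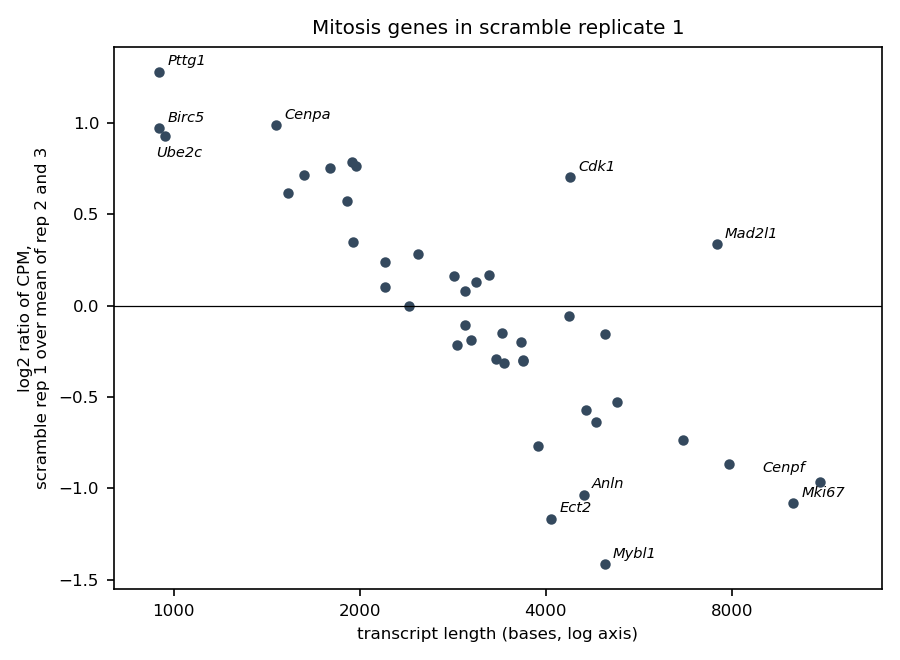
Log2 ratio of CPM in scramble replicate 1 over the mean of scramble replicates 2 and 3 (y axis) against transcript length in bases (log x axis) for the 43 mitosis genes, 1 point per gene. Short transcripts such as Pttg1 (1.28) lie above 0 and long ones such as Mybl1 (-1.42) below, with Spearman's rho at -0.82.

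Levels differed widely between members once divided by length. Averaged over the 11 libraries, Ube2c had 111 CPM per kilobase of its principal transcript, Birc5 57.3, Top2a 57.2 and Prc1 55.2. At the low end were Mybl1 with 3.49, Mybl2 with 4.06 and Espl1 with 6.61 CPM per kilobase. Both Myb genes and separase were thus the least abundant of the 43, and Mybl1 was also the one with the largest fold change.

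A separate list of 52 other mitosis genes had similar counts. In edgeR without scramble replicate 1, 40 of the 52 rose and 1 fell in pool 3 against the other pools, and 36 fell and 3 rose in pool 2, with medians of 0.25 and -0.22. Among all genes, 18.1% were higher and 21.5% lower in pool 3 and 23.5% higher and 20.3% lower in pool 2. Nek2, a centrosome kinase gene, was read at 55.03 and 53.9 CPM in pool 3, 33.7 and 32.4 in pool 2, 40.4 and 42.2 in pool 1, 38.8 and 41.5 in pool 4 and 29.9, 32.3 and 31.6 in scramble replicates 1, 2 and 3, and its fold changes were 0.48 ± 0.04 in pool 3 and -0.38 ± 0.05 in pool 2. Ckap2, a spindle pole gene, stood at 0.40 and -0.39, and Kifc1, a minus-end kinesin gene, at 0.43 and -0.45. Of 13 cohesin and condensin genes, 8 rose and 2 fell in pool 3, with Smc1a at 0.18, Ncaph at 0.25 and the cohesin gene Stag2 at -0.18.

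Genes of the machinery that the mitosis genes act through divided more evenly in pool 3. Of 17 genes of the anaphase-promoting complex, 5 rose and 4 fell in pool 3 against the other pools, with the subunit genes Anapc15 at 0.37, Anapc4 at 0.10 and Cdc27 at -0.35. Of 17 genes of MuvB, DREAM and the Rb family, 4 rose and 4 fell in pool 3, with the E2F genes E2f4 at 0.15 and E2f2 at -0.21, while the MuvB gene Lin52 did not pass (-0.13). In pool 2 of the same list, 8 rose and 3 fell.
Of 40 DNA replication genes, 13 rose and 7 fell in pool 3, and 5 rose and 16 fell in pool 2. The helicase subunit genes Mcm3 and Mcm5 went opposite ways in pool 3, at 0.19 and -0.18, and Gins3 stood at 0.24. The counts of these lists stand beside 18.1% of all genes higher and 21.5% lower in pool 3, and 23.5% higher and 20.3% lower in pool 2. In pool 2 the list of MuvB, DREAM and Rb family genes leaned higher and the DNA replication list leaned lower.

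**Figure D5:**
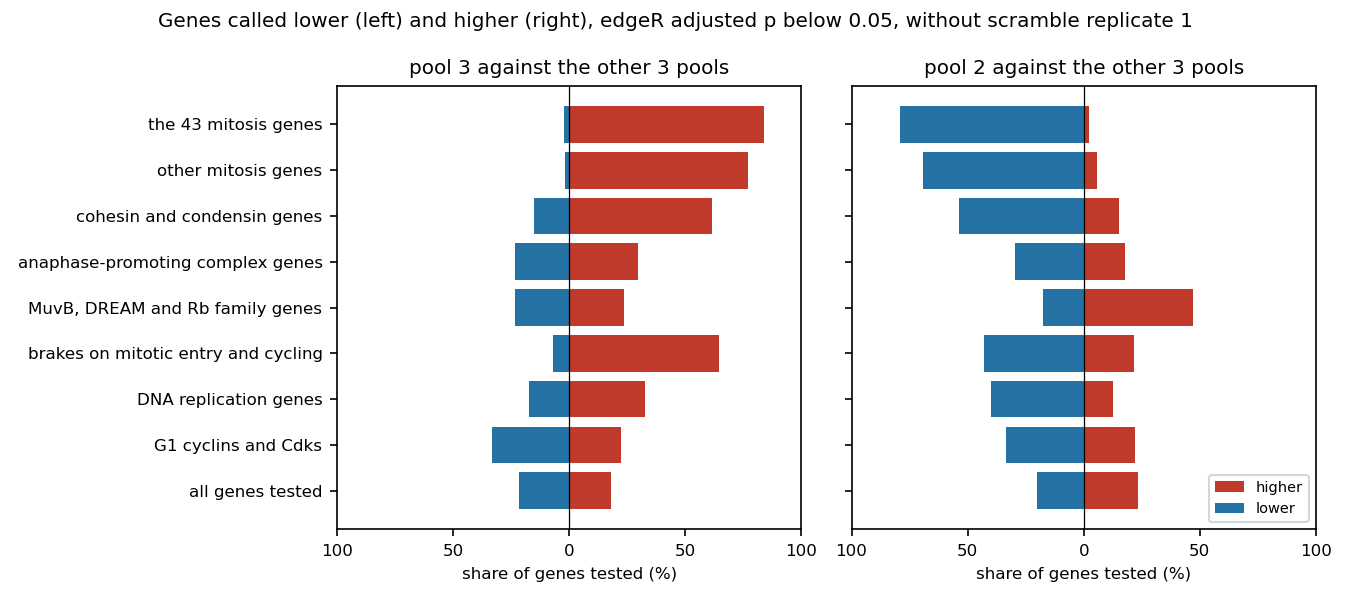
Share of tested genes called higher (red, right of 0) and lower (blue, left of 0) in pool 3 and in pool 2, each against the other 3 pools, for the 43 mitosis genes, 7 other lists and all genes tested (edgeR, without scramble replicate 1). In pool 3 the 43 mitosis genes and the 52 other mitosis genes have long red bars (36 and 40 genes) and in pool 2 long blue ones (34 and 36 genes), while all genes tested show 18.1% higher and 21.5% lower in pool 3.

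Of 14 genes of brakes on mitotic entry and cycling, 9 rose and 1 fell in pool 3 against the other pools, while 18.1% of all genes were higher and 21.5% lower. The gene that fell was Cdkn1a, which encodes the Cdk inhibitor p21: it was read at 248 and 246 CPM in pool 3, 341 and 327 in pool 2, 293 and 284 in pool 1, 274 and 272 in pool 4 and 438, 346 and 317 in scramble replicates 1, 2 and 3. Pool 3 was below all other libraries and pool 2 lay within the scramble range, with fold changes of -0.31 ± 0.04 in pool 3 and 0.37 ± 0.03 in pool 2 against the other pools (edgeR adjusted p = 6.06e-07 and 1.78e-08). The Cdk inhibitor gene Cdkn2c ran with the mitosis genes, at 0.57 ± 0.06 in pool 3 and -0.63 ± 0.07 in pool 2, as did the antiproliferative gene Btg2, at 0.23 and -0.34. Cdkn1b, which encodes p27, rose in pool 3 by 0.11.
Of 9 genes of G1 cyclins and Cdks, 2 rose and 3 fell in pool 3, counts near those shares of all genes. Ccnd2, a cyclin D gene that mouse granulosa cells need to proliferate, was read at 1503 and 1469.9 CPM in pool 3, 982 and 908 in pool 2, 1281 and 1294 in pool 1, 1292 and 1271 in pool 4 and 372, 1012 and 966 in scramble replicates 1, 2 and 3. Pools 3, 1 and 4 exceeded all scramble libraries, and scramble replicate 1 was the lowest. The pool 3 fold changes against the other pools were 0.32 ± 0.03 for Ccnd2, 0.17 ± 0.04 for Ccnd1 and -0.32 ± 0.05 for Cdk6, all called, and 0.08 ± 0.04 for Cdc25a, which did not pass.

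Markers of granulosa cells ran against the mitosis genes. Their 11 genes summed to 1747 to 1901 CPM in pool 3, 2606 to 2817 in pool 2, 2377 to 2482 in pool 1, 2279 to 2411 in pool 4 and 2859 to 4280 in scramble. This sum rests largely on Inha, whose levels are given above. In edgeR without scramble replicate 1, 7 of the 10 markers tested fell in pool 3 against the other pools and 7 rose and 1 fell in pool 2. Of all genes, 18.1% were higher and 21.5% lower in pool 3 and 23.5% higher and 20.3% lower in pool 2, which stand beside each count of markers here. The 10 theca and stroma markers summed to 4001 to 4039 CPM in pool 3, 5517 to 5692 in pool 2, 4535 to 4659 in pool 1, 4399 to 4652 in pool 4 and 5307 to 7348 in scramble, with 5 of 8 tested lower in pool 3 and 4 higher in pool 2. The theca genes Cyp17a1 and Insl3 were at no more than 0.46 and 0.07 CPM, so that sum rests on collagen and smooth muscle genes. The 8 immune markers summed to 9.67 to 10.7 CPM in pool 3, 6.07 to 7.60 in pool 2, 6.42 to 8.03 in pool 1, 6.92 to 7.89 in pool 4 and 5.89 to 9.83 in scramble, with the leukocyte gene Ptprc at no more than 0.13 CPM and 2 of 4 tested higher in pool 3. The 6 endothelial markers summed to 17.3 to 19.3 CPM in pool 3, 13.3 to 15.03 in pool 2, 17.01 to 17.95 in pool 1, 15.1 to 15.3 in pool 4 and 13.2 to 14.3 in scramble, with the cadherin gene Cdh5 at no more than 0.44 CPM and 3 of 5 tested higher in pool 3. Oocyte markers (8 genes) summed to 4.92 to 5.92 CPM in pool 3 and 3.09 to 8.24 in the other groups, and surface epithelium markers (7 genes) to 349 to 372 CPM in pool 3 and 343 to 647 in the other groups. No listed marker was at 0 in all libraries. The part of these markers in the result was not tested.

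The authors' deposited table, which compares the pools with scramble, gives fold changes for all 43 members and an adjusted p for 39. A single member, Aurka, passed in the authors' deposited table, at a log2 fold change of -0.41 with an adjusted p of 0.0265, while 9.72% of the genes with an adjusted p did. The median log2 fold change over the members was 0.12 in the authors' deposited table, with Mybl1 the highest at 0.60 and Pttg1 the lowest at -0.49. For Pttg1 the authors give neither a p-value nor an adjusted p.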

How the data were processed

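Each library's deposited file lists raw read counts under gene symbols. The submitters' processing notes name build mm10 and, in alphabetical order, bcl2fastq 2.15.0, cutadapt 1.9.1, DESeq2, FastQC 0.11.5, featureCounts 1.5.0-p2 and TopHat2. How they were run, strand option included, is not given in the sources used here, so reads of overlapping genes or of close paralogs cannot be told apart. Per the labels, libraries were made with a stranded mRNA kit from 1.3 µg of total RNA and read as single reads of 75 bases. The authors' deposited comparison table holds a mean normalized signal, log2 fold changes with standard errors, p-values, adjusted p-values and a Wald score.

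The 92 ERCC spike-in lines (0.268% to 0.788% of a library) were left out of library sizes and tests. Counts were fitted for all genes in R 4.3.3 with edgeR 4.0.16, using TMM factors (0.970 to 1.03), filterByExpr (14144 genes kept with all libraries, 14062 without scramble replicate 1, 14056 with the pools alone) and the two-sided quasi-likelihood F test. All 43 members passed the filter. All pools against scramble used 2 groups, and the other comparisons used 5 groups, which share 1 estimate of spread. The 8 pool libraries come as 2 from each of 4 pools but were treated as independent in the first comparison. The same code was tested on simulated counts.

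Library-by-library values were given for the 12 members with the smallest p in the 4-pool test with all libraries, for the 8 with the smallest p among those then called against scramble, and for Mki67, Top2a, Cdk1, Ccnb1, Plk1, Aurkb, Foxm1 and Mybl2. Those of Aurka, Ube2c, Cdc20, Pttg1 and Hmmr were added after their values were seen. Up to 3 genes of each other list were named by the smallest p of the same test, with Cdkn1a, Cdkn1b, Ccnd1 and Ccnd2 added. Members and lists were chosen with earlier results of these data known. Transcript lengths are those of the longest principal transcript of each gene in GENCODE vM21 (GRCm38). Where no transcript was marked principal, the longest one was to be taken. Promoter windows come from RefSeq on GRCm38.p6. Alternatives were RLE scaling, library totals, no low-count filter, DESeq2 1.42.0, a replicate block, the pools alone and leaving out each library. Leaving out both libraries of a pool, and leaving out further libraries from the fits without scramble replicate 1 or with the pools alone, were chosen after seeing the data. Same-numbered libraries did not deviate together (correlations of -0.05 to 0.08).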

Additional observations from a re-analysis of the deposited data

Results flagged for a closer look

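With all 11 libraries, 3 values passed the test of a difference between one pool and the other 3 in edgeR. Prc1, the gene of the midzone microtubule bundler, stood at a log2 fold change of 0.45 in pool 3 and at -0.41 in pool 2, each against the mean of the other 3 pools. Kif2c, the gene of a microtubule-depolymerising kinesin, stood at -0.37 in pool 2 against the other 3. No explanation was tested.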

How the results depend on the processing

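Counts of members called moved with several choices, and the cause was not tested. The share of all genes called moved between reruns as well and is not set beside each count here. These counts, and those of DESeq2 given above, therefore do not compare the members with other genes. Of the 43 members, DESeq2 called 1 for all pools against scramble (edgeR 0), 2 for pool 4 against scramble (0), 7 for any difference among pools (0), 5 for pool 2 against the other pools (2) and 6 for pool 3 against the other pools (1). The 8 pool libraries alone gave 37 for any difference, 1 for pool 1, 35 for pool 2 and 39 for pool 3, each pool against the others. Library totals gave 1 for any difference and 2 for pool 3 against the others, RLE scaling gave 0 for pool 3 against the others, and no low-count filter gave 0 for pool 2 and 0 for pool 3 against the others. For all pools against scramble, the mean of pools in the fit with 5 groups gave 2, and leaving out both pool 2 libraries gave 5. The labels do not say whether the replicate numbers pair the samples. With those numbers as a replicate block, the counts were 4 for all pools against scramble and 0 for pool 2 and 0 for pool 3 against the others. Leaving out 1 library at a time gave 0 to 7 for all pools against scramble (7 without scramble replicate 3), 0 to 15 for pool 1, 0 to 6 for pool 2, 0 to 37 for pool 3 and 0 to 24 for pool 4 against scramble, 0 to 37 for any difference, and 0 to 3, 0 to 36, 0 to 40 and 0 to 0 for pools 1, 2, 3 and 4 against the others, counting also fits already without scramble replicate 1 or without scramble. From all 11 libraries, the pool 3 count of 12 against scramble became 36 or 7 when scramble replicate 1 or 2 was left out, 0 or 2 when pool 3 replicate 1 or 2 was left out, and 4 or 5 without any 1 library of the other pools. The 2 calls in pool 2 and the 1 in pool 3 against the other pools were 0 without scramble replicate 2 or without any 1 pool library. Without scramble replicate 1 the counts were steadier: a further library left out gave 32 to 37 for pool 3 against scramble, 33 to 37 for any difference, 28 to 35 for pool 2 and 33 to 40 for pool 3 against the others, while pool 4 against scramble had 13 without pool 4 replicate 1 (24 before), pool 1 had 10 without pool 1 replicate 2 (15 before), and pool 2 had 6 without scramble replicate 2 and 3 without scramble replicate 3 (1 before). Of the 15 fold changes of single members called with all libraries (12 in pool 3 against scramble and 3 between pools), none changed sign in these reruns; 300 reruns kept the call and 117 lost it. Calls made without scramble replicate 1 were not rerun gene by gene, only as counts. With 2 libraries per pool, a lone library is assumed to vary like the other groups.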
